A study of Mus musculus with 2 samples.

Results

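Cxcl9, Cxcl10, Cxcl11 and Cxcr3 are the interferon-induced chemokines and their shared receptor, and their transcripts were followed in immune cells of the adult mouse lung. The genes were chosen by symbol. Of these 4 genes, 3 are among the 31053 genes in the deposited matrices. No row carries the name or identifier of Cxcl11, and it was not analysed here.

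Chemokines of this family are secreted under interferon and draw in cells that carry Cxcr3. Cxcl9 is induced chiefly by interferon-gamma, whereas Cxcl10 is also induced by type I interferons and inflammatory signals through NF-kB. Cxcr3 is known for its place on type 1 CD4 T cells, effector CD8 T cells and NK cells, and in lung and other tissues macrophages and cross-presenting dendritic cells (cDC1) are known sources of Cxcl9 and Cxcl10.

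Single-cell RNA was measured with 10x Genomics 3' v3 chemistry in 2 libraries, 1 per group. Both came from adult Gli1creERT mice with floxed Hhip, in which a tamoxifen-inducible Cre is expressed from the Gli1 locus; Gli1 is a Hedgehog target gene, and Hhip encodes a protein that binds and restrains Hedgehog ligands. The control library came from mice injected with oil, and the other from mice injected with tamoxifen. Cells were live and CD45-positive, and had not been reached by a CD45 antibody injected into the blood shortly before death, so that cells within the vessels were left out. The groups have the same alleles, and no group with tamoxifen but without the floxed gene or Cre is among the samples. The drug and the loss of Hhip therefore cannot be told apart, nor can a group be told apart from its library. The labels do not give the number, age in weeks, sex or strain background of the animals. Hhip itself was found with 40 UMIs (unique molecular identifiers, each 1 captured transcript) in oil and 29 in tamoxifen, and Gli1 with 9 in each, too few in sorted immune cells to check the deletion.

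The oil library kept 6794 of 10342 barcodes and 53146681 UMIs, and the tamoxifen library 10138 of 12980 barcodes and 79853762 UMIs, with median depths of 6360.5 and 6431 UMIs per cell. More barcodes passed the limit on mitochondrial UMIs in oil (31.9%) than in tamoxifen (20.7%) and were left out. Of kept cells, 3714 in oil and 6156 in tamoxifen were called female and 1413 and 1679 male by their Xist and Y-linked UMIs, so both libraries held cells of both sexes. The libraries shared 41 barcode sequences, of which 18 were kept in both.

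Cells were assigned by gates on raw UMIs, and a cell could lie in several. The Ly6i gate (Ly6i, Chil1 and Gpnmb) held 137 oil and 524 tamoxifen cells, the alveolar macrophage gate (Krt79 and Plet1) 476 and 2507, the C1q macrophage gate (C1qa and C1qb) 1221 and 1262, and the cDC1 gate (Xcr1 and Clec9a) 539 and 701. Migratory dendritic cells with Ccr7 and Fscn1 numbered 169 and 189, and cells with Cd3 transcripts 3019 and 5127, called the T gate. Independent markers were found in each gate they belong to, although the Ly6i gate is a mixture. Of its cells, 102 in oil (74.5%) and 288 in tamoxifen (55.0%) also lay in the alveolar gate, and 12 (8.76%) and 128 (24.4%) in the C1q gate. Its 7 alveolar macrophage markers summed to 17962 CPM (UMIs per 1000000 UMIs of the same cells) in oil and 7280 CPM in tamoxifen. The 7 markers listed for the Ly6i gate itself summed to 12402 and 14476 CPM. They were Ccr2, Ly6c2, Plac8, Lyz2, Csf1r, Adgre1 and Inhba, and Csf1r and Adgre1 are also on the C1q macrophage list. In the Ly6i gate 4 neutrophil markers summed to 2995 and 14134 CPM, and the part of these other cells in the results of the gate was not tested.

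The Cxcl9 gene lies at chr5:92321347-92328079, that of Cxcl10 at chr5:92346638-92348889, that of Cxcl11 at chr5:92359544-92365485, and that of Cxcr3 at chrX:101731535-101734269 (GRCm38, all on the minus strand). The chemokine genes are thus neighbours on chromosome 5. GENCODE M21 lists Cxcl9, Cxcl10 and Cxcr3 as protein coding and Cxcl11 as a polymorphic pseudogene, a gene that is intact in some mouse strains only. The 250 bases before the start of Cxcl9 and Cxcl10 are shown (RefSeq, GRCm38.p6, written 5′ to 3′ on the minus strand, with capitals for motif matches).
Cxcl9, chr5:92328080-92328329: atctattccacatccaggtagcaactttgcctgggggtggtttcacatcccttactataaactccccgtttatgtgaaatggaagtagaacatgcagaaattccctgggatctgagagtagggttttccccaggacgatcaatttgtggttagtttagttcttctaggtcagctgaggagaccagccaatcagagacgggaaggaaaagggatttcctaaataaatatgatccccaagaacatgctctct
Cxcl10, chr5:92348890-92349139: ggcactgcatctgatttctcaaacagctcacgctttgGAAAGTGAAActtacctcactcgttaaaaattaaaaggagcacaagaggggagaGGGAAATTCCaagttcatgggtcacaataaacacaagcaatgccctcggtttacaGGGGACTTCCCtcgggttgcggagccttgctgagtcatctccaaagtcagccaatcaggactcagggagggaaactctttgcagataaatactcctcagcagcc
Both strands were searched for the interferon-stimulated response element written GAAANNGAAA, the gamma-activated site written TTCNNNGAA and the NF-kB motif. The Cxcl10 window held 1 response element, 213 to 204 bases before the start. It also held 3 NF-kB matches, at 159 to 150, 104 to 95 and 103 to 94 bases, of which the last 2 overlap. Among 32851 promoters of this length the response element was found in 2.98%, the gamma-activated site in 7.02% and the NF-kB motif in 7.25%. The Cxcl9 window held none of these letters, nor did the Cxcr3 window, which is not printed. Only full matches within 250 bases were counted, so sites farther away or with other letters would be missed. Whether the motifs bear on the levels was not tested.

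Cxcl9 was the member that differed most between the libraries. It was found with 1490 UMIs in 205 oil cells and 7040 UMIs in 463 tamoxifen cells. Its level over all kept cells was 28.0 CPM (26.6 to 29.5) in oil and 88.2 CPM (86.1 to 90.3) in tamoxifen. The log2 ratio of tamoxifen over oil was 1.65 (1.57 to 1.73). These ranges, like all below, are exact 95% intervals of counting error only. Neither group was replicated, so the treatment was not tested, and UMIs of 1 cell are not independent, so the intervals are too narrow where few cells hold the UMIs.

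Cxcl10 and Cxcr3 were slightly lower in tamoxifen over all kept cells. Cxcl10 was found with 5190 UMIs in 819 oil cells (97.7 CPM) and 6555 UMIs in 1002 tamoxifen cells (82.1 CPM), a log2 ratio of -0.25 (-0.30 to -0.20). Cxcr3 had 1279 UMIs in 774 oil cells (24.1 CPM) and 1556 UMIs in 1000 tamoxifen cells (19.5 CPM), -0.30 (-0.41 to -0.20). Of the 3 members, 1 was at least 2-fold higher and none was at least 2-fold lower, where 4.58% and 4.27% of 15373 genes with at least 20 UMIs were.

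**Figure D1:**
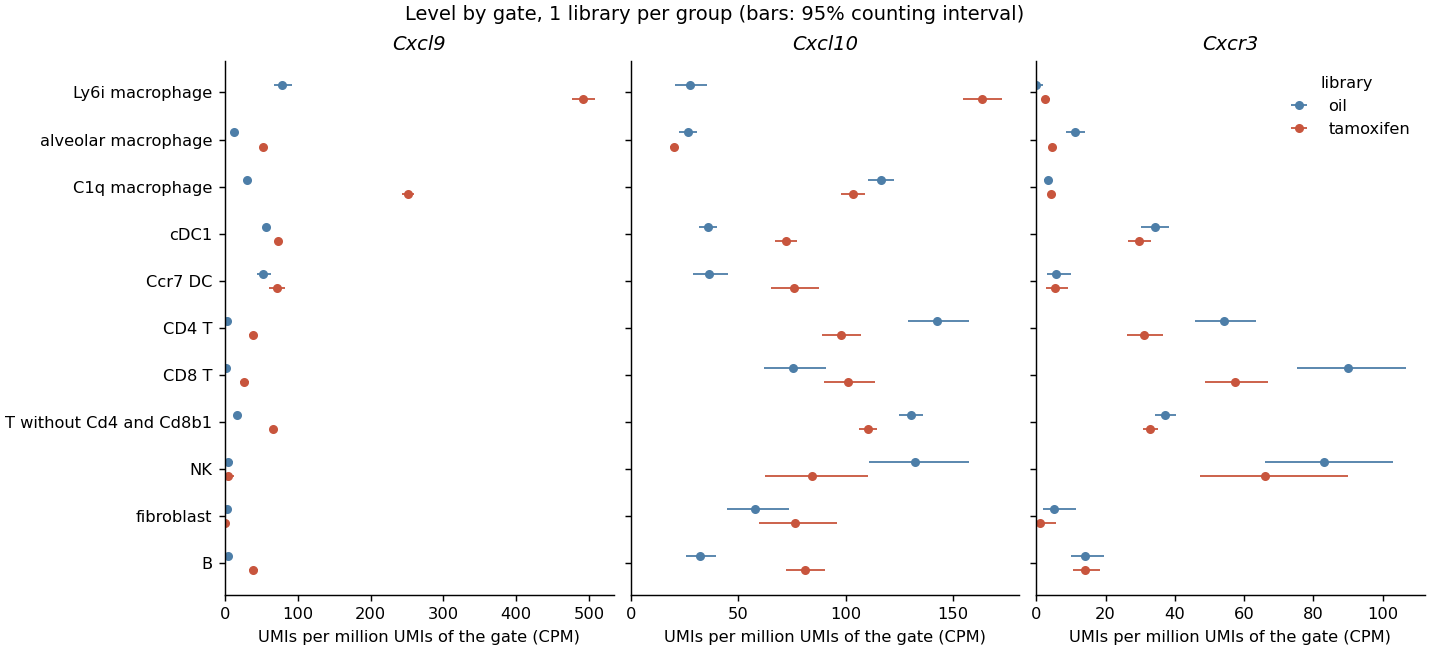
Level of Cxcl9, Cxcl10 and Cxcr3 in CPM of each gate (horizontal axis) for the oil library (blue) and the tamoxifen library (red); points are 1 library each and bars are 95% counting intervals. Cxcl9 in tamoxifen was highest in the Ly6i gate (492 CPM) and the C1q gate (252 CPM), and Cxcr3 was highest in CD8 T and NK cells.

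Cxcl9 in the tamoxifen library was highest in macrophages of the Ly6i gate, named after a surface protein of the Ly6 family. This order rests on female cells, since in male tamoxifen cells the Ly6i gate stood at 10.3 CPM (7 UMIs) and the C1q gate at 72.9 CPM. In the Ly6i gate 158 UMIs were found in oil and 3760 in tamoxifen, levels of 78.7 and 492 CPM and a log2 ratio of 2.65 (2.42 to 2.88). Only 12 of 137 oil cells had a Cxcl9 UMI, and 3 of them held 88.6% of the UMIs. In tamoxifen 132 of 524 cells had one, and the top 3 held 12.3%. With every cell reduced to 1500 UMIs, 1.48% (0.18 to 5.25) of oil and 16.8% (13.7 to 20.3) of tamoxifen cells in the gate had a Cxcl9 UMI, against 0 of 231 oil B cells, which allows a share of up to 1.30%, and 0.23% of tamoxifen B cells. Unreduced, the shares were 8.76% and 25.2% in the Ly6i gate, at median depths of 14229 and 13647 UMIs, and 2.12% and 2.31% in B cells, at 7744 and 6878 UMIs.

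Cxcl9 was also higher in the gate with its alveolar macrophages left out. Without the cells of the alveolar gate, 35 oil and 236 tamoxifen cells were left, with 98 and 3180 Cxcl9 UMIs (194 and 916 CPM), 2.24 (1.95 to 2.54). In oil all 98 UMIs lay in 3 cells, so the oil level here is that of very few cells. Cxcl10, the other chemokine, stood at 55 UMIs in oil and 1250 in tamoxifen in the whole Ly6i gate (27.4 and 164 CPM), 2.58 (2.19 to 3.00), and at 103 and 318 CPM without the alveolar gate, 1.62 (1.22 to 2.06). Of its oil UMIs, 98.2% lay in 3 cells. Cxcr3 had 0 UMIs in the oil and 20 in the tamoxifen cells of the gate, with a lower limit of 0.38 for the log2 ratio. Both chemokines were at least 2-fold higher in the Ly6i gate and neither was lower, where 6.38% and 3.01% of 10668 genes were; without the alveolar gate the same held, where 8.26% and 7.74% of 8802 genes were.

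In C1q macrophages, which express complement C1q, Cxcl9 and Cxcl10 did not go together. Cxcl9 had 364 UMIs in 51 oil cells and 3390 UMIs in 103 tamoxifen cells, levels of 30.6 and 252 CPM and a log2 ratio of 3.04 (2.88 to 3.20). Cxcl10 had 1382 UMIs in 173 oil cells and 1392 UMIs in 168 tamoxifen cells, 116 and 103 CPM, -0.17 (-0.28 to -0.06). This direction was not stable: Cxcl10 stood at 0.25 (0.12 to 0.39) in female and -1.15 (-1.41 to -0.90) in male cells, and at 0.038 without the highest doublet scores. Of the 3 members Cxcl9 alone was at least 2-fold higher and none was lower, where 3.37% and 2.0% of 12077 genes were. The cells that the C1q and Ly6i gates share carried much of this. Without them Cxcl9 stood at 30.9 and 101 CPM, 1.71 (1.54 to 1.89), with 54.7% of the tamoxifen UMIs in 3 cells. The cells with a Cxcl9 UMI were then 50 of 1209 in oil and 45 of 1134 in tamoxifen, so the level was higher but the number of cells with a UMI was not. Cxcl10 stood there at 119 and 70.5 CPM, -0.75 (-0.88 to -0.63). Cxcl9 again was the 1 member at least 2-fold higher and none was lower, where 2.52% and 1.48% of 11920 genes were. Alveolar macrophage markers summed to 188 CPM in the oil and 540 CPM in the tamoxifen C1q gate, and their part in these values was not tested.

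When cells were split into sets that do not overlap, the cells in both the Ly6i and C1q gates stood out. These were 12 oil cells with 5 Cxcl9 UMIs in 1 cell, and 128 tamoxifen cells with 2240 Cxcl9 UMIs in 58 cells. They made up 1.26% of tamoxifen cells and held 31.8% of its Cxcl9 UMIs, at 1058 CPM against 19.1 CPM in oil. Their Cxcl10 count was 0 in oil and 591 in tamoxifen, a log2 ratio with a lower limit of 4.30, and 64.6% of the UMIs were in 3 cells. Cells in the Ly6i gate and neither other macrophage gate were 24 and 118, with 93 and 1024 Cxcl9 UMIs (347 and 653 CPM, 0.91, 0.60 to 1.23). All 93 oil UMIs lay in 2 cells and the tamoxifen UMIs in 28, so the oil level is that of very few cells. Cells of no gate, with median depths of only 1322 and 1129.5 UMIs, held 9 oil and 461 tamoxifen Cxcl9 UMIs, of which 62.9% lay in 3 tamoxifen cells.

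**Figure D2:**
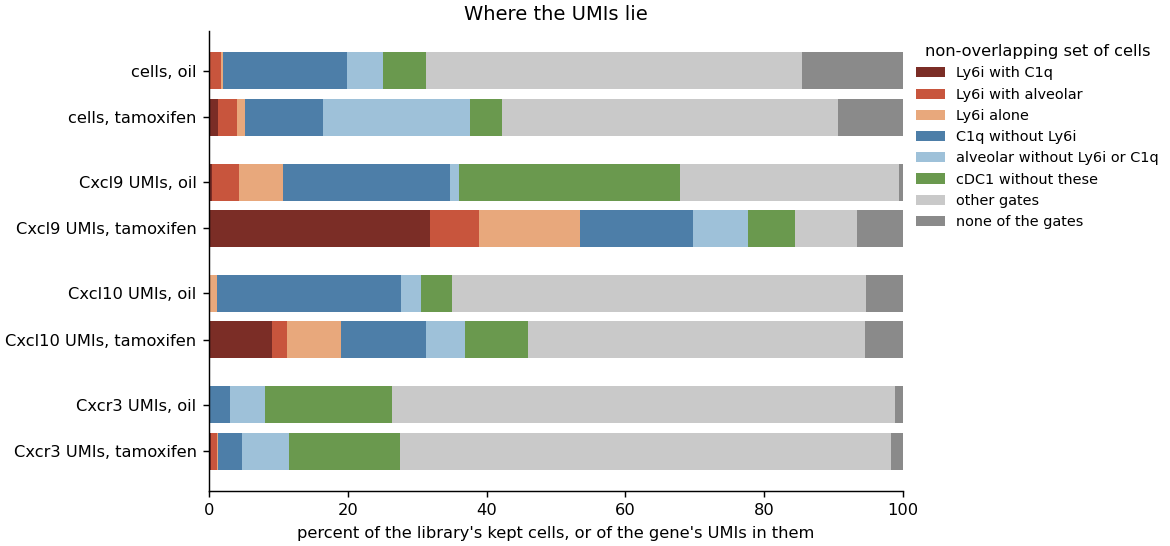
Share of kept cells and of each gene's UMIs (horizontal axis, percent) in 8 sets of cells that do not overlap, for each library. Cells in both the Ly6i and C1q gates were 1.26% of tamoxifen cells and held 31.8% of its Cxcl9 UMIs; the remaining gates held 59.7% of the Cxcl10 and 72.6% of the Cxcr3 UMIs in oil.

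Few cells carried the bulk of Cxcl9. Cells with at least 10 Cxcl9 UMIs numbered 35 in oil and 122 in tamoxifen, and held 72.3% and 89.7% of its UMIs. Of these, 11 in oil and 93 in tamoxifen lay in the Ly6i or the C1q gate. Their highest counts were 150 and 257 UMIs in a cell. For Cxcl10 the cells with at least 10 UMIs were 137 and 165, which held 63.2% and 67.9% of its UMIs, and 33 and 52 of them lay in those gates.

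**Figure D3:**
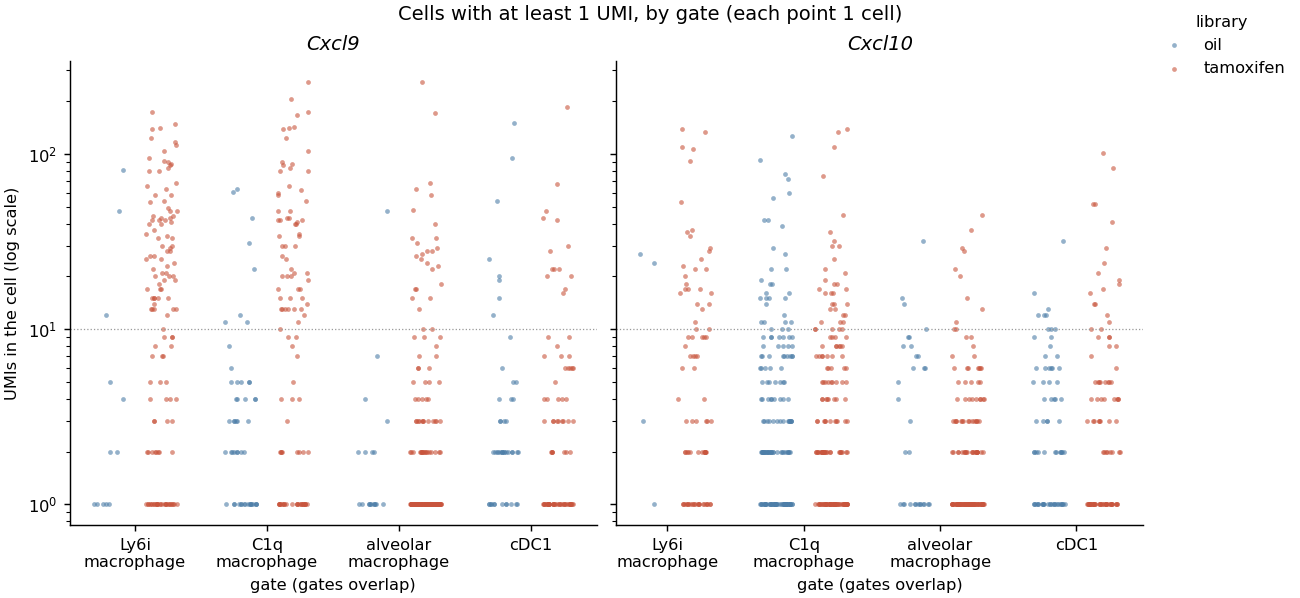
UMIs of Cxcl9 (left) and Cxcl10 (right) in each cell with at least 1 UMI (vertical log axis), for 4 gates and both libraries; a cell in several gates is drawn in each, and the dotted line marks 10 UMIs. In the Ly6i gate 3 oil and 77 tamoxifen cells reached 10 Cxcl9 UMIs, and in the C1q gate 8 and 61 did.

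Cxcl10 was found more often in cells with a Cxcl9 UMI than in cells without one. Of cells with a Cxcl9 UMI, 96 of 205 in oil (46.8%) and 151 of 463 in tamoxifen (32.6%) also had a Cxcl10 UMI, and 10.97% and 8.80% of cells without Cxcl9 had one. In the tamoxifen Ly6i gate 51 of 132 Cxcl9 cells (38.6%) had Cxcl10, against 8.42% of the cells without Cxcl9. These shares were taken at full depth, and deeper cells show more of both genes.

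In alveolar macrophages Cxcl9 was lower than in the other macrophages. It had 80 UMIs in oil and 1417 in tamoxifen (12.8 and 51.7 CPM), 2.01 (1.69 to 2.36), and without cells of the Ly6i or C1q gates 20 and 560 UMIs (4.55 and 25.3 CPM), of which 45.0% lay in 3 tamoxifen cells. Cxcl10 stood at 26.6 and 20.1 CPM, -0.40 (-0.66 to -0.14), the lowest level of any macrophage gate in tamoxifen. In alveolar cells of no other gate Cxcl10 went the other way, with 6 oil and 200 tamoxifen UMIs, 2.06 (0.92 to 3.53). Cxcr3 had 70 and 123 UMIs (11.2 and 4.48 CPM), of which 2 and 5 were in cells of no other gate. Of the members Cxcl9 was at least 2-fold higher and Cxcr3 at least 2-fold lower, where 3.91% and 5.85% of 12459 genes were.

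The Cxcl10 level was higher with tamoxifen in cDC1, and the difference in Cxcl9 varied with the cells counted. Cxcl10 had 308 UMIs in 72 oil cells and 753 UMIs in 98 tamoxifen cells (35.9 and 72.3 CPM), 1.01 (0.82 to 1.21), and in cDC1 outside the macrophage gates it stood at 36.0 and 91.2 CPM, 1.34 (1.12 to 1.57). Of the tamoxifen UMIs in those cells, 39.8% were in 3 cells. The share of cells in the whole cDC1 gate with a Cxcl10 UMI was close, 13.4% in oil and 14.0% in tamoxifen. At 1500 UMIs per cell it was 3.54% (2.14 to 5.47) and 4.43% (3.03 to 6.24). Cxcl9 had 483 UMIs in 47 oil cells and 763 UMIs in 85 tamoxifen cells (56.3 and 73.2 CPM), 0.38 (0.21 to 0.55), and outside the macrophage gates 74.0 and 73.8 CPM, -0.00 (-0.19 to 0.18). The top 3 cells held 61.9% of the oil and 39.3% of the tamoxifen Cxcl9 UMIs of the gate. Without the 3 highest cells of each library Cxcl9 stood at 1.05 and Cxcl10 at 0.79, and in female cDC1 they stood at 1.21 (1.00 to 1.41) and 0.99 (0.71 to 1.27). Alveolar macrophage markers summed to 106 and 935 CPM in the oil and tamoxifen cells of the cDC1 gate, and their part was not tested. Of the members Cxcl10 alone was at least 2-fold higher and none was lower, where 4.38% and 1.41% of 11214 genes were.

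In Ccr7 dendritic cells most Cxcl9 lay in 3 cells, and in the gate on Cd209a and Mgl2 its level depended on which other gates its cells lay in. The Ccr7 gate had 117 and 173 Cxcl9 UMIs (52.7 and 70.6 CPM), but 95.7% and 90.2% of them were in 3 cells. Cxcl10 stood there at 36.5 and 75.9 CPM, 1.06 (0.67 to 1.45), with 63.0% and 79.6% of UMIs in 3 cells. Without the 3 highest cells of each library Cxcl9 in the Ccr7 gate stood at 1.64 and Cxcl10 at 0.20. The gate on Cd209a and Mgl2, markers of cDC2 and of some macrophages, shared 954 of its 1698 oil cells and 759 of its 1293 tamoxifen cells with the C1q gate. It held 989 oil and 773 tamoxifen Cxcl9 UMIs (48.3 and 48.6 CPM), with 31.1% and 59.5% in 3 cells. In its cells of no other gate Cxcl9 had 351 and 51 UMIs (66.3 and 26.5 CPM), -1.32 (-1.78 to -0.90). The whole gate stood at 109 and 63.4 CPM of Cxcl10, -0.79 (-0.89 to -0.68). Fibroblasts, which the sort should leave out, numbered 99 and 85, with 3 and 0 Cxcl9 UMIs and 66 and 73 Cxcl10 UMIs. Of the fibroblast Cxcl10 UMIs in tamoxifen 93.2% were in 3 cells. The neutrophil gate held 17 oil and 218 tamoxifen Cxcl9 UMIs. The endothelial gate went the other way, with 69 and 0, but 63 of the oil UMIs were in 1 cell.

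Most Cxcl10 lay in the T gate in both libraries. It had 2673 UMIs in 455 of 3019 oil cells and 3776 UMIs in 616 of 5127 tamoxifen cells, 51.5% and 57.6% of the kept Cxcl10 UMIs. The gate itself made up 44.4% and 50.6% of kept cells. The levels were 128 and 107 CPM, -0.26 (-0.33 to -0.19). At 1500 UMIs per cell 8.02% (7.03 to 9.10) of oil and 5.82% (5.17 to 6.52) of tamoxifen cells had a Cxcl10 UMI. B cells stood at 2.60% (0.96 to 5.57) and 3.52% (1.98 to 5.74), and alveolar macrophages at 2.56% and 1.35%. Other gates were close to the T gate, with C1q macrophages at 6.77% and 5.09% and the gate on Cd209a and Mgl2 at 7.27% and 4.82%. The T gate needs only 1 Cd3 UMI and held cells of other kinds. In its cells without Cd4 and Cd8b1, C1q macrophage markers summed to 1113 and 977 CPM and neutrophil markers to 469 and 3781 CPM. In cells of that T gate and no other, Cxcl10 still stood at 156 CPM in oil (1488 UMIs in 263 cells) and 120 CPM in tamoxifen (1659 UMIs in 326 cells), -0.38 (-0.48 to -0.28).

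By T cell subset, the Cxcl10 level was lower in tamoxifen in CD4 T cells, and in CD8 T cells the level and the share of cells with a UMI went opposite ways. CD4 T cells held 393 Cxcl10 UMIs with oil and 457 with tamoxifen (143 and 97.8 CPM), -0.55 (-0.74 to -0.35). Of these, 36.4% and 22.5% lay in 3 cells, and 1 oil cell alone held 88. The share of CD4 T cells with a Cxcl10 UMI was 14.2% (11.1 to 17.8) in oil and 13.0% (10.6 to 15.8) in tamoxifen. At 1500 UMIs per cell it was 9.18% (6.55 to 12.4) and 6.19% (4.44 to 8.37). CD8 T cells had 110 and 286 UMIs (75.6 and 101 CPM), 0.42 (0.10 to 0.75), with 40.9% and 45.5% in 3 cells. The share of CD8 T cells with a Cxcl10 UMI was 13.9% (9.64 to 19.1) in oil against 10.3% (7.55 to 13.6) in tamoxifen, and 7.66% (4.44 to 12.1) against 5.19% (3.24 to 7.82) at 1500 UMIs per cell. In male CD8 T cells the log2 ratio was -0.28 (-1.07 to 0.53). NK cells had 131 and 51 UMIs (133 and 84.2 CPM), -0.65 (-1.15 to -0.18), with 74.8% and 74.5% in 3 cells. Cxcl9 in the T gate was 271 and 2012 UMIs (13.0 and 56.9 CPM), but in cells of the T gate without Cd4 and Cd8b1 and of no other gate it was 4.61 and 19.2 CPM, and in CD4 T cells 95.5% of the 176 tamoxifen UMIs were in 3 cells. Of the members in the T gate Cxcl9 alone was at least 2-fold higher and none was lower, where 4.39% and 2.81% of 13874 genes were.

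Cxcr3, the receptor, was highest in CD8 T and NK cells. In oil CD8 T cells stood at 90.0 CPM (75.2 to 107, 131 UMIs), NK cells at 83.0 CPM (66.0 to 103, 82 UMIs), CD4 T cells at 54.1 CPM (45.8 to 63.6, 149 UMIs), T cells without Cd4 and Cd8b1 at 37.2 CPM (34.3 to 40.3, 615 UMIs) and cDC1 at 34.2 CPM (30.4 to 38.3, 293 UMIs). The intervals of CD8 T and NK cells overlapped, as did those of the last 2 groups. B cells stood at 14.2 CPM and C1q macrophages at 3.28 CPM. At 1500 UMIs per cell, 5.40% (3.65 to 7.66) of oil and 4.29% (2.91 to 6.07) of tamoxifen cDC1 had a Cxcr3 UMI. In tamoxifen the order was NK cells at 66.0 CPM (47.2 to 89.9), CD8 T cells at 57.3 CPM (48.9 to 66.9), T cells without Cd4 and Cd8b1 at 32.9 CPM (30.8 to 35.2), CD4 T cells at 31.0 CPM (26.2 to 36.5) and cDC1 at 29.8 CPM (26.5 to 33.3). The intervals of the first 2 overlapped, as did those of the other three.

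Between the libraries Cxcr3 was lower in tamoxifen in CD4 and CD8 T cells. The log2 ratio was -0.80 (-1.14 to -0.46) in CD4 T cells and -0.65 (-0.99 to -0.31) in CD8 T cells. In female cells it was -0.96 (-1.36 to -0.56) and -0.96 (-1.37 to -0.54). In male cells it was -0.26 (-1.55 to 1.16) and -0.19 (-1.06 to 0.71), on 8 and 17 UMIs in CD4 and 20 and 29 in CD8 T cells. These intervals include the female values, so the male cells are too few to tell whether they share the difference. In cells of the CD4 and CD8 T gates and no other the log2 ratio was -0.96 (-1.34 to -0.59) and -0.53 (-0.88 to -0.17). At 1500 UMIs per cell, 9.93% (7.19 to 13.3) of oil and 4.92% (3.37 to 6.91) of tamoxifen CD4 T cells had a Cxcr3 UMI. For CD8 T cells the shares were 14.8% (10.3 to 20.4) and 7.65% (5.26 to 10.7), and in C1q macrophages, as background, 0.33% and 0.65%. Unreduced shares were 22.0% and 13.6% of CD4 T cells, 34.1% and 23.2% of CD8 T cells and 2.46% and 3.49% of C1q macrophages, at median depths of 5338 and 5368, 5805 and 5515.5, and 8554 and 9666.5 UMIs. The 3 cells with most held 8.05% to 13.0% of the Cxcr3 UMIs in these T cells. Alveolar macrophage markers summed to 198 and 919 CPM in the CD4 and to 34.4 and 966 CPM in the CD8 gate, and their part was not tested.

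In the other T cells, cDC1 and NK cells the Cxcr3 differences were mostly small. T cells without Cd4 and Cd8b1 stood at -0.18 (-0.33 to -0.02), cDC1 at -0.20 (-0.43 to 0.04) and NK cells at -0.33 (-0.91 to 0.23). T cells with both Cd4 and Cd8b1 stood at -3.03 (-4.51 to -1.58), but on 10 UMIs in 14 oil cells and 9 UMIs in 135 tamoxifen cells. NK cells in no other gate went the other way, 94.6 and 128 CPM, 0.44 (-0.21 to 1.07), and NK markers summed to 3512 and 1751 CPM over the whole gate. The gate held 174 oil and 77 tamoxifen cells. In UMIs per cell, and with the 8 non-overlapping sets at their oil shares in both libraries, Cxcr3 over all cells stood at -0.14 in place of -0.29. Cxcl9 stood at 1.15 in place of 1.66 when weighted so.

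Both libraries held female and male cells, and the members were also counted in each. Over all kept cells Cxcl9 was 28.5 CPM with oil against 114 CPM with tamoxifen in female cells, 2.002 (1.90 to 2.10), and at 27.3 and 39.4 CPM in male cells, 0.53 (0.33 to 0.72). In the Ly6i gate 98 oil and 424 tamoxifen cells were female, with 63 and 3520 Cxcl9 UMIs, whereas 18 and 42 were male, with 2 and 7. In C1q macrophages the Cxcl9 ratio was 2.94 (2.77 to 3.12) in female and 2.69 (2.17 to 3.25) in male cells. The male value rests on 35 UMIs in 6 of 313 oil cells and 221 UMIs in 12 of 289 tamoxifen cells. Of the tamoxifen cells that the C1q and Ly6i gates share, 118 were female and 3 male. In cDC1 Cxcl9 was higher with tamoxifen in female cells, 58.9 and 136 CPM, and lower in male cells, 51.7 and 27.0 CPM, whereas Cxcl10 was higher in both, 0.99 (0.71 to 1.27) and 1.29 (0.94 to 1.66). Cxcr3 in the T gate was 42.3 and 26.02 CPM in female cells, -0.70 (-0.87 to -0.53), and 45.2 and 50.3 CPM in male cells, 0.15 (-0.11 to 0.42). Since the number of animals is not stated, a sex may stand for a single animal, and no difference between the sexes was tested.

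**Figure D4:**
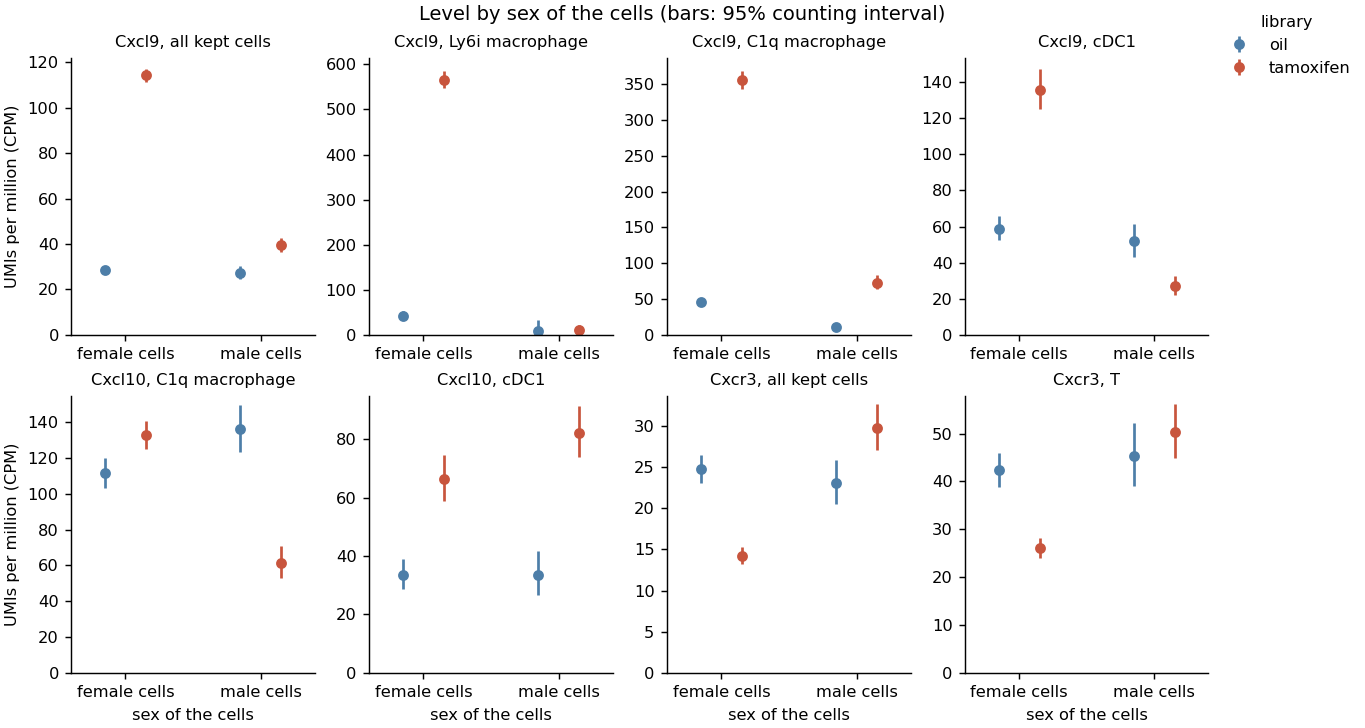
Level in CPM (vertical axis, from 0) in female and male cells of the oil library (blue) and the tamoxifen library (red), for chosen genes and gates; bars are 95% counting intervals. Cxcl9 in the Ly6i gate reached 566 CPM in female tamoxifen cells and 10.3 CPM in male ones, and Cxcr3 in the T gate was 42.3 and 26.02 CPM in female cells and 45.2 and 50.3 CPM in male cells.

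Several interferon target genes were also higher in the Ly6i gate of the tamoxifen library. Of 22 genes of the interferon-gamma pathway, 20 had at least 20 UMIs there, and 12 were at least 2-fold higher and none lower, where 6.38% and 3.01% of all 10668 genes were. Their median log2 ratio was 1.17, and that of all genes -0.07. Without the alveolar gate 11 of 20 were higher and none lower (median 1.23), where 8.26% and 7.74% of all genes were. Some of the higher genes had only 0 to 19 oil UMIs, or 0 to 18 without the alveolar gate. They passed the minimum of 20 UMIs through tamoxifen, so these counts are a description only. Gbp2, a guanylate-binding GTPase, stood at 92.6 and 205 CPM (1.15, 0.93 to 1.38). Psmb8, an immunoproteasome subunit, was at 234 and 423 CPM, and Ifngr1, a chain of the interferon-gamma receptor, at 144 and 184 CPM. Of 12 type I interferon genes, 11 had 20 UMIs, but their oil counts were only 0 to 20 against 25 to 566 in tamoxifen. They passed that minimum through tamoxifen, apart from Isg15, so no count of higher genes is drawn from them. Isg15, a ubiquitin-like protein, stood at 9.96 and 74.1 CPM and Irf7, a regulator of interferon genes, at 5.98 and 56.1 CPM. Ifi44 and Rsad2, an antiviral enzyme, had only 2 and 4 oil UMIs, against 160 and 124 in tamoxifen.

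Of 11 genes of the Cxcr3 axis, 8 had 20 UMIs in the Ly6i gate, and 3 of them were at least 2-fold higher and none lower (median 0.38). Without the alveolar gate 3 of 8 were higher and 2 lower (median 0.46); the lower genes, named after their values were seen, were Il15 at 25.8 and 7.77 CPM (-1.73, -2.73 to -0.65) and Dpp4 at 11.9 and 5.76 CPM (-1.05, -2.41 to 0.56). The shares of all genes given above apply to these counts too. Ccl5, a chemokine that attracts T cells, stood at 28.9 and 344 CPM (3.57, 3.20 to 3.97), and Cxcl16, the ligand of Cxcr6, at 110 and 358 CPM (1.70, 1.504 to 1.91). Il18, a cytokine that promotes interferon-gamma, was at 313 and 261 CPM. These lists were chosen with earlier results of these data known, and a gene that is low in oil reaches 20 UMIs through tamoxifen alone, so the counts are a description only.

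In the C1q gate 6 of 20 interferon-gamma genes and 7 of 10 type I genes were at least 2-fold higher and none lower (medians 0.50 and 1.59, all genes 0.07), with 2 of 8 in the Cxcr3 axis, where 3.37% and 2.0% of all genes were higher and lower. Here too a gene low in oil can reach 20 UMIs through tamoxifen, so these counts and those below are a description only. Without the cells of the Ly6i gate the counts of higher genes were 0 of 19, 2 of 9 and 1 of 8, with medians of -0.01, 0.62 and 0.16, where 2.52% of all genes were higher. Cxcl9 went from 3.04 to 1.71 with the same cells left out. Psmb8 there stood at 261 and 284 CPM and Isg15 at 9.73 and 18.6 CPM. In cDC1 the interferon-gamma list had 2 of 21 higher and 1 lower (median -0.02), the type I list 0 of 7 higher and 1 lower (-0.09) and the Cxcr3 axis 0 of 8 either way (0.02), where 4.38% and 1.41% of all genes were higher and lower. Il12b, a subunit of IL-12, was at 107 and 108 CPM in cDC1.

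In the T gate 0 of 20 interferon-gamma genes were at least 2-fold higher or lower (median -0.00), 3 of 11 type I genes were higher (0.56), and of the Cxcr3 axis 2 of 11 were higher and none lower (-0.20), where 4.39% and 2.81% of all genes were. Ccl5 stood at 667 and 586 CPM, and Cxcr6, a receptor of tissue-resident T cells, at 396 and 374 CPM. In alveolar macrophages the 3 lists gave 1 higher and 1 lower of 20, 3 and 2 of 11, and 2 and 1 of 9, where 3.91% and 5.85% of all genes were higher and lower. Over all kept cells they gave 1 and 0 of 22, 1 and 0 of 11, and 2 and 1 of 11, where 4.58% and 4.27% of all genes were.

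The genes whose levels ran most alike to each member over 10 gates in 2 libraries, 20 points that share cells and depth, were found among 13909 genes by Pearson's r of log2(CPM + 1). For Cxcl9 they were Gm36161 (0.854), Arpc1b (0.815), P2rx5 (0.804), Tbc1d9 (0.796) and Pirb (0.785). For Cxcl10 they were Cd38 (0.831), Psenen (0.798), Card19 (0.787), Irf7 (0.781) and Fyb (0.781). For Cxcr3 they were A930024E05Rik (0.930), Clcf1 (0.929), Hmgb2 (0.927), Itgb7 (0.924) and Traf3ip3 (0.919). Among the members r was -0.071 between Cxcl9 and Cxcl10, -0.338 between Cxcl9 and Cxcr3 and 0.367 between Cxcl10 and Cxcr3.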

How the data were processed

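Transcripts of single cells were measured in 1 library per group. The values are UMI counts as deposited, unnormalized; Cell Ranger 5.0.1 and GRCm38 (mm10) are named in the submitters' processing notes, and which gene annotation was used is not given in the sources seen. The smallest deposited barcode had 500 UMIs.

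Barcodes with at least 300 genes and under 10% mitochondrial UMIs were kept. Gates were sums of raw UMIs: Ly6i, Chil1 and Gpnmb at least 3; Krt79 and Plet1 at least 2; C1qa and C1qb at least 5; Xcr1 and Clec9a at least 2; Ccr7 and Fscn1 at least 1 each; Cd3d, Cd3e and Cd3g at least 1, split by Cd4 and Cd8b1; Ncr1 and Klrb1c at least 1 without Cd3; Dcn and Col1a2 at least 3; Cd79a and Ms4a1 at least 2 (B cells); Cd209a and Mgl2 at least 2. Retnlg and Csf3r at least 3 (neutrophils) and Pecam1 and Cdh5 at least 3 (endothelial cells) were gates too. Cells in several gates were 26.7% in oil and 26.0% in tamoxifen, and 985 and 944 were in none. Doublets were kept, and an alternative removed the 369 oil and 822 tamoxifen barcodes with the highest Scrublet scores (0.8% per 1000 barcodes). UMIs were summed per gate and library and scaled to the gate's total. Ratios carry exact Poisson intervals and shares Clopper-Pearson intervals; they and limits for 0 (3 counts) cover counting error only. Shares were also taken with cells thinned to 1500 UMIs (seed 1).

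The members, gates and gene lists were chosen with earlier results of these data known. Named genes are the members, up to 4 of each list per gate with the most UMIs, and the 5 genes most alike to each member. Listed genes and all genes were counted as at least 2-fold higher or lower where both libraries together gave 20 UMIs. The non-overlapping sets of cells, the Ly6i gate without the alveolar gate and the C1q gate without the Ly6i gate were added after seeing the data. The ratio step was tested on simulated counts. Promoters are from RefSeq (GRCm38.p6) and positions from GENCODE M21, matched by identifier. Python 3.11.15, numpy 2.4.6, scipy 1.17.1, pandas 2.3.3, scanpy 1.11.5 and matplotlib 3.10.9 were used.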

Additional observations from a re-analysis of the deposited data

Results flagged for a closer look

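In several gates the direction of a difference was not the same in female and male cells, and these differences between the sexes were not tested. Cxcr3 over all kept cells stood at a log2 ratio of tamoxifen over oil of -0.80 in female and 0.37 in male cells. Cxcl10 in C1q macrophages stood at 0.25 in female cells (111.5 and 133 CPM) and -1.15 in male cells (136 and 61.4 CPM). Cxcl9 in cDC1 stood at 1.21 in female and -0.94 in male cells. Cxcl10 in T cells without Cd4 and Cd8b1 stood at -0.25 in female cells (141 and 118 CPM) and 0.42 in male cells (78.7 and 105 CPM).

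Barcodes outside the filters, which enter no comparison above, also held more Cxcl9 in tamoxifen. They were 3548 in oil and 2842 in tamoxifen, with 59 and 203 Cxcl9 UMIs (12.9 and 52.4 CPM), a log2 ratio of 2.02 (1.59 to 2.46).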

How the results depend on the processing

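The direction and size of member values held, within their counting intervals, with a mitochondrial limit of 25% and with all deposited barcodes. No paired analysis was possible because each group has 1 library. Values below are log2 ratios of tamoxifen over oil. Without the highest doublet scores Cxcl9 was 1.81 in all cells, 3.71 in the Ly6i, 3.39 in the C1q and 1.77 in the Ccr7 gate, and Cxcl10 was 3.55 in the Ly6i and 0.038 in the C1q gate. With cells of 1 gate only Cxcl9 was 3.46 (Ly6i), 3.34 (C1q) and 1.97 (Ccr7), Cxcl10 1.12 (Ly6i), -0.54 (C1q) and 2.06 (alveolar), and Cxcr3 0.44 (NK). These Cxcl9 values rest on few cells with a UMI. They were 1 of 15 oil and 14 of 48 tamoxifen cells (Ly6i), 4 of 176 and 5 of 252 (C1q), and 3 of 97 and 5 of 88 (Ccr7). With gate thresholds doubled Cxcl9 was 3.90 (Ly6i), 0.027 (cDC1) and 0.87 (Ccr7). Without the 3 highest cells of each library Cxcl9 was 1.87 (all), 5.56 (Ly6i), 3.62 (C1q), 1.05 (cDC1) and 1.64 (Ccr7), and Cxcl10 7.81 (Ly6i, 1 oil UMI left), -0.29 (C1q) and -2.40 (fibroblasts). Median-of-ratios scaling gave 1.57 for Cxcl9 and -0.33 for Cxcl10 in all cells. The shift it subtracted from the ratios of all genes was -0.10 in the Ly6i and 0.12 in the alveolar gate. Ratios thus rose in the Ly6i and fell in the alveolar gate. UMIs per cell gave -0.037 for Cxcl10 in the C1q gate.

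In female cells Cxcl9 was 2.002 (all), 3.78 (Ly6i), 1.21 (cDC1) and 1.83 (Ccr7), Cxcl10 -0.19 (all), 6.62 (Ly6i, 3 oil UMIs, 5.07 to 8.90) and 0.25 (C1q), and Cxcr3 -0.80 (all). In male cells Cxcl9 was 0.53 (all), 0.21 (Ly6i), 2.69 (C1q) and -0.94 (cDC1), Cxcl10 -0.37 (all), -1.15 (C1q), -0.99 (Ccr7), 0.42 (T without Cd4 and Cd8b1), -0.28 (CD8 T) and 3.46 (NK, 1 and 5 UMIs), and Cxcr3 0.37 (all), -0.26 (CD4 T), -0.19 (CD8 T) and 0.22 (T without Cd4 and Cd8b1). Chosen after seeing the data, leaving out the alveolar gate gave 2.24 and 1.62 for Cxcl9 and Cxcl10 in the Ly6i gate and 0.035 for Cxcr3 in T cells without Cd4 and Cd8b1, and leaving out the Ly6i gate gave 1.71 and -0.75 for Cxcl9 and Cxcl10 in the C1q gate and -0.068 for Cxcl9 in cDC1. The causes were not tested.

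At a minimum of 50 in place of 20 UMIs per gene, fewer genes were at least 2-fold higher and lower: 418 and 142 in place of 681 and 321 (Ly6i), 421 and 305 in place of 727 and 681 (Ly6i without alveolar), 241 and 99 in place of 407 and 242 (C1q), 147 and 65 in place of 300 and 177 (C1q without Ly6i), 291 and 446 in place of 487 and 729 (alveolar), 277 and 52 in place of 491 and 158 (cDC1), and, for lower genes, 407 in place of 657 (all cells) and 198 in place of 390 (T). Fewer genes were tested. Cxcl11, Cxcl9 in fibroblasts and settings that left 0 UMIs in a library gave no value.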
